A study of Mus musculus with 24 samples.

Results

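The activin and Nodal signalling genes examined here were 10 genes measured in mouse blastocysts whose mother, father or neither parent was obese. They were the activin subunit genes Inhba and Inhbb, the ligand gene Nodal, the co-receptor gene Tdgf1, the receptor genes Acvr1b and Acvr2b, the inhibitor genes Lefty1, Lefty2 and Fst, and the transducer gene Smad2. They were taken by symbol from the platform annotation and made up 10 of the 19938 genes that had a probe set with a single symbol. Inhba was selected on its measured values: it had been noted for low values in the male blastocysts of obese fathers. Every comparison that holds those arrays is therefore given as a description, with no p printed for any of the 10 genes. Counts of genes called stand there only beside the share of all tested genes and are no test of the members.

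Affymetrix Mouse Gene 1.0 ST arrays measured expression, each loaded with amplified RNA from a pool of 3 blastocysts of the same sex and the same mother, with 4 arrays in each of 6 groups. The mice were outbred NMRI animals with no engineered allele. Lean parents had both received a control diet. Obese parents had received a high-calorie, high-fat diet for 9 weeks, starting when they were 3 weeks old, and at 12 weeks they were mated with a partner fed the control diet. The groups were female and male blastocysts of 2 lean parents, of an obese mother with a lean father, and of an obese father with a lean mother, all collected 3.5 days after mating, and all parents ate the control diet while mating. The pools came from cohorts of 7 animals on the high-fat diet and 14 on the control diet. There were 8 pools of obese mothers and 16 of lean mothers, each more than the animals of its cohort. Some mothers therefore gave more than 1 pool, of the same or of different sex. The parents of single pools are not named, so which pools share a parent is unknown, while the tests treat them as independent. A blastocyst holds trophectoderm and inner cell mass together, and in such bulk samples fewer cells of a type and less RNA per cell cannot be told apart.

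Activins are dimers of the beta subunits encoded by Inhba and Inhbb, and Nodal is a related ligand of the TGF-beta family. Both signal through a type II receptor such as the product of Acvr2b and a type I receptor such as ALK4, the product of Acvr1b, which phosphorylate SMAD2 and SMAD3. Nodal also needs an EGF-CFC co-receptor such as Cripto, encoded by Tdgf1, and is restrained by the Lefty proteins, while follistatin, encoded by Fst, binds activins. In the mouse embryo Nodal signalling is known for its part in maintaining the epiblast and in patterning the axes.

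The promoters of a ligand with the low values, a ligand that shared its array-to-array pattern with its inhibitor, and the co-receptor that ran opposite to both are printed because the results turn on these genes. Each is the 250 bases before the gene's start in RefSeq (GRCm38.p6), written 5' to 3' on the gene's own strand, and capitals mark the SMAD box GTCT or its reverse complement AGAC.
Inhba, chr13:16011601-16011850 (plus strand): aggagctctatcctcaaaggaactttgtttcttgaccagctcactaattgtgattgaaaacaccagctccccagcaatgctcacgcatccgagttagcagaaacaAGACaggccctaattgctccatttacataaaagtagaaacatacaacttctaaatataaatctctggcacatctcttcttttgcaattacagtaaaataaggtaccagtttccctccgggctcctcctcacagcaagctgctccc
Nodal, chr10:61417722-61417971 (plus strand): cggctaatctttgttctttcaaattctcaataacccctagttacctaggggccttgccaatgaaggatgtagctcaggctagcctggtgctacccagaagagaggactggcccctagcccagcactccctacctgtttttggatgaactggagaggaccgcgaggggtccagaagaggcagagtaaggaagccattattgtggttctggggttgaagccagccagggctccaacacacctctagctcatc
Tdgf1, chr9:110946159-110946408 (minus strand): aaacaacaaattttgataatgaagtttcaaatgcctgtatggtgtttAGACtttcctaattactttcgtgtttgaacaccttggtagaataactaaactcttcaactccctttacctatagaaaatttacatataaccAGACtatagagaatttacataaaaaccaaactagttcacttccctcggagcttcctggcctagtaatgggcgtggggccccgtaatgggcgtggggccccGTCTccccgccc
The window of Inhba held 1 SMAD box, that of Tdgf1 3 and that of Nodal 0, and these letters occur in 82.9% of the 32851 mouse promoters of the same length. Of the other members, Acvr1b had 1 match, and Acvr2b and Inhbb had 2 each; 6 members had a promoter in the table. The palindrome GTCTAGAC, found in 0.167% of all promoters, and the FOXH1 motif AATNCACA or its reverse complement TGTGNATT, found in 3.18%, had no match in any of the 6 windows. GC content was 43.2% for Inhba, 53.2% for Nodal and 42.0% for Tdgf1, against a median of 52.4% for all promoters. A match is a string of letters and not a binding site.

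The deposited values are log2 intensities, with 0 missing values, and each of the 10 genes had 1 probe set. The markers of blastocyst cell types averaged above the median of the whole table, 2.56. The 12 trophectoderm markers averaged 4.40 to 5.09 over the groups and the 11 inner cell mass and epiblast markers on the array 3.85 to 4.00. The 12 primitive endoderm markers averaged 3.17 to 3.29. The 16 cumulus and granulosa markers on the array averaged 2.74 to 2.87, also above the median. These levels are therefore only a loose check of the label. Array means were nearly equal, from 2.82 to 2.86, but the spread of an array, the standard deviation (SD) of all its log2 values, ran from 1.27 to 1.81. The spread was widest on obese-father female replicate 22 (1.81) and obese-father male replicate 12 (1.72), and some results below are given with and without these arrays. It averaged 1.56 ± 0.11 (SD, n = 4) in males of obese fathers against 1.38 ± 0.12 in males of lean parents, and the exact two-sided permutation test gave p = 0.114 (adjusted 0.707 over 9 comparisons), where 4 against 4 arrays allow no p below 0.0286.

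Nodal, Lefty1, Tdgf1 and Acvr2b exceeded the table median on all 24 arrays. Acvr1b did so on 22, Inhba on 20 and Inhbb on 17, whereas Lefty2 and Fst did so on 5 each and Smad2 on 4. As a gauge of signal without transcript, the probe sets of 8 Y-linked genes averaged between 1.33 and 2.96 over the 12 female arrays, the highest being Sry (2.96) and the next Uba1y (2.09). The means of Inhba (2.93), Acvr1b (2.83), Inhbb (2.70), Fst (2.39), Smad2 (2.30) and Lefty2 (2.30) over 24 arrays lay above those of 7 of these probe sets and below that of Sry, so the upper end of the gauge rests on 1 probe set, and the presence of these transcripts is not settled by it. The means of Acvr2b (3.21), Lefty1 (3.89), Nodal (4.19) and Tdgf1 (4.93) lay above all 8. Levels are not ranked between genes, because probe sets differ in brightness for the same amount of RNA.

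**Figure D1:**
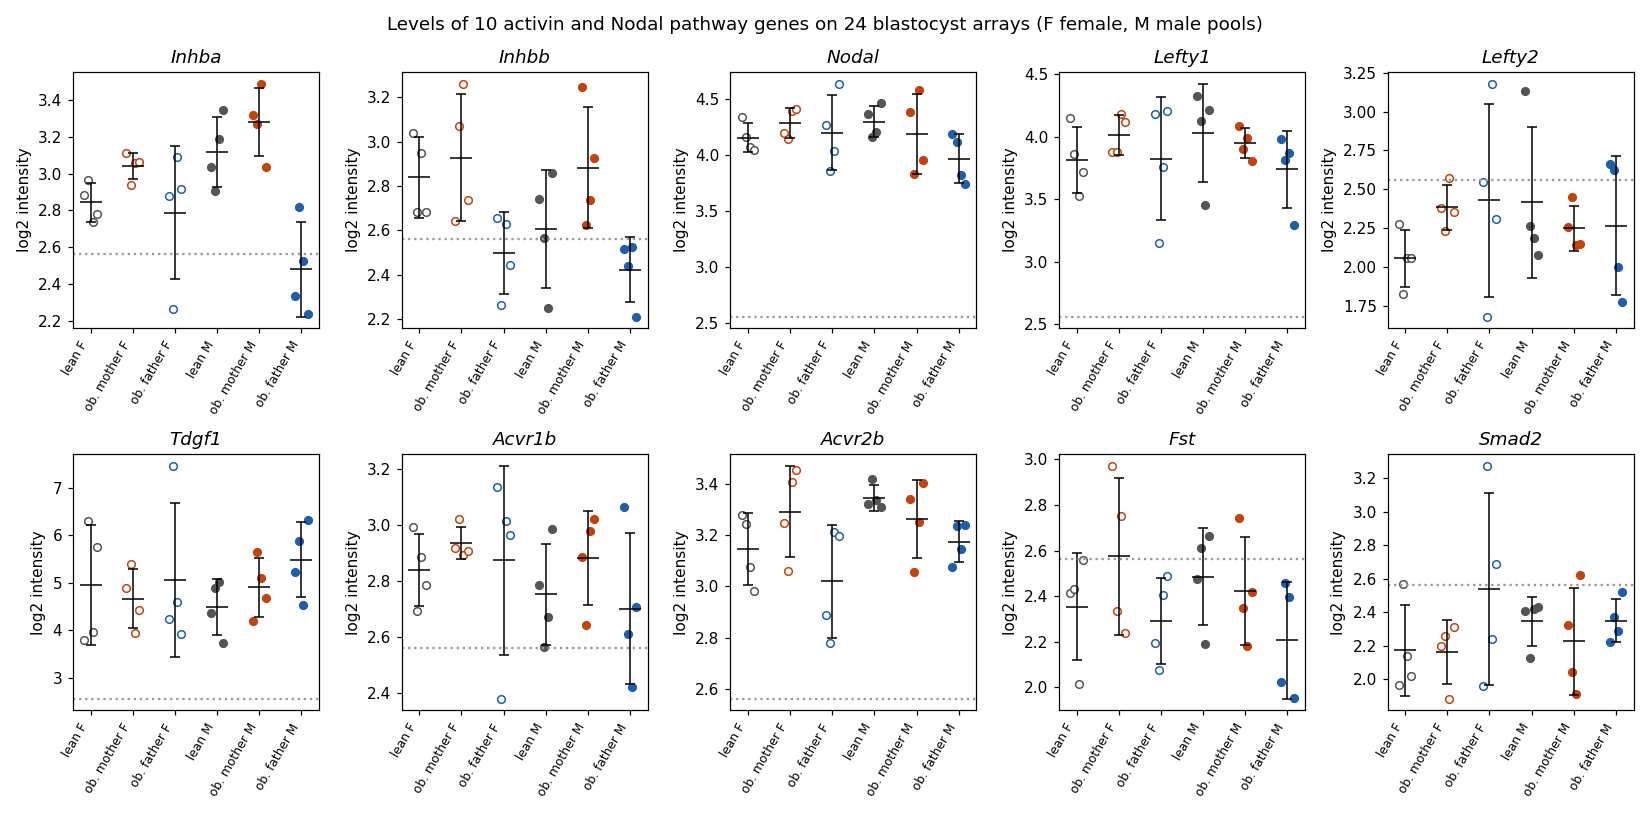
Log2 intensity of the 10 genes (vertical axes) on the 24 arrays, by group, for blastocysts of lean parents, obese (ob.) mothers and obese fathers, open circles for female and filled circles for male pools. Horizontal bars are group means, error bars are SD over 4 arrays, the dotted line is the median of the whole table (2.56), and Inhba of obese-father males (2.24 to 2.82) lies below every lean-parent male array (2.91 to 3.35).

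Inhba, the gene of the activin A subunit, had its lowest mean in males of obese fathers. In males of lean parents its log2 level was 3.04, 2.91, 3.19 and 3.35 on the 4 arrays (mean 3.12 ± 0.19, SD). In males of obese mothers it was 3.32, 3.27, 3.49 and 3.04 (3.28 ± 0.19). In males of obese fathers it was 2.33, 2.82, 2.53 and 2.24 (2.48 ± 0.26). The arrays of obese-father males all lay below those of both other male groups, whose ranges overlapped each other. In females the levels were 2.89, 2.97, 2.74 and 2.78 with lean parents (2.84 ± 0.10) and 3.11, 2.94, 3.06 and 3.06 with obese mothers (3.04 ± 0.07). With obese fathers they were 2.88, 2.26, 3.09 and 2.92 (2.79 ± 0.36), where the lowest array was replicate 22, the one of widest spread. The female groups overlapped one another. In the order of means, obese-mother males came first, followed by lean-parent males, obese-mother females, lean-parent females, obese-father females and obese-father males, and every group overlapped its neighbour in that order.

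Inhbb, the gene of the activin B subunit, had its lowest means with obese fathers in both sexes. In females its level was 3.04, 2.68, 2.95 and 2.68 with lean parents, 2.64, 3.07, 3.26 and 2.74 with obese mothers, and 2.66, 2.26, 2.63 and 2.44 with obese fathers. Each obese-father female array lay below every lean-parent female array, by a narrow margin, and overlapped the obese-mother arrays. In males its level was 2.74, 2.57, 2.25 and 2.86 with lean parents, 3.25, 2.62, 2.74 and 2.93 with obese mothers, and 2.51, 2.44, 2.53 and 2.21 with obese fathers. The obese-father male arrays lay below the obese-mother arrays and overlapped the lean-parent arrays.

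Nodal, the gene of the other ligand, varied less between groups. Its group means ran from 3.97 ± 0.22 in obese-father males to 4.30 ± 0.14 in lean-parent males, with obese-mother females at 4.29 ± 0.14, obese-father females at 4.20 ± 0.34, obese-mother males at 4.19 ± 0.35 and lean-parent females at 4.16 ± 0.13. The lowest and the highest group overlapped. Single arrays ran from 3.75, on obese-father male replicate 12, to 4.64, on obese-father female replicate 24.

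Tdgf1, the gene of the co-receptor Cripto, had the widest scatter among the 10 genes within groups. With lean parents its level was 3.80, 6.31, 3.97 and 5.76 in females and 4.36, 4.89, 5.02 and 3.73 in males. With obese mothers it was 4.90, 5.41, 3.94 and 4.44 in females and 4.20, 5.64, 5.10 and 4.68 in males. With obese fathers it was 4.25, 7.47, 4.59 and 3.93 in females and 5.23, 5.88, 4.53 and 6.33 in males. All 6 groups overlapped, and the array at 7.47 was the one of widest spread. The mouse genome holds the pseudogenes Tdgf1-ps1 and Tdgf1-ps2, on chromosomes 16 and 17, and whether the Tdgf1 probes also read them was not tested.

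The range of group means was 0.33 for the receptor gene Acvr2b (pooled SD within groups 0.15) and 0.23 for Acvr1b (0.21). The highest and lowest groups of Acvr2b, lean-parent males and obese-father females, did not overlap. Acvr2b, the gene of activin receptor type IIB, had the level 3.32, 3.42, 3.34 and 3.31 in lean-parent males and 3.28, 3.24, 3.08 and 2.98 in lean-parent females. The lean-parent male arrays were all above the lean-parent female arrays. In obese-father males it was 3.08, 3.23, 3.15 and 3.24, below all lean-parent male arrays, and in obese-father females 2.89, 2.78, 3.21 and 3.20. In obese-mother blastocysts it averaged 3.29 ± 0.18 in females and 3.26 ± 0.15 in males. Acvr1b, the gene of the type I receptor ALK4, had group means from 2.70 ± 0.27 in obese-father males to 2.93 ± 0.06 in obese-mother females, and the lowest and highest groups overlapped.

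The inhibitor genes gave overlapping groups throughout. Lefty1 averaged from 3.74 ± 0.31 in obese-father males to 4.03 ± 0.39 in lean-parent males, and its lowest array, at 3.15, was obese-father female replicate 22. Lefty2 averaged from 2.05 ± 0.18 in lean-parent females to 2.43 ± 0.62 in obese-father females, and Fst from 2.21 ± 0.26 in obese-father males to 2.58 ± 0.35 in obese-mother females. Lefty1 and Lefty2 are close paralogs on chromosome 1 with 3 genes between them, and whether their probes share signal was not tested. Smad2, the gene of the transducer that the receptors phosphorylate, averaged from 2.16 ± 0.19 in obese-mother females to 2.54 ± 0.57 in obese-father females. Its 4 arrays above the table median were spread over lean-parent females (1), obese-father females (2) and obese-mother males (1).

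An obese mother went with no called difference in any of the 10 genes. Genes were called at a Benjamini-Hochberg adjusted p under 0.05 in limma, over 13311 tested genes, and all 10 members passed the filter on dim genes. In females 0 of 10 were called, where 0.0% of all tested genes were, and 0 had an unadjusted p under 0.05, where 2.19% of all tested genes had. The largest differences from lean parents were 0.33 (95% interval -0.21 to 0.87) for Lefty2 and -0.29 (-1.63 to 1.06) for Tdgf1, on the log2 scale. Inhba differed by 0.20 (-0.13 to 0.53) and Inhbb by 0.09 (-0.25 to 0.43). The median log2 difference of the 10 genes was 0.14, against 0.05 for all tested genes, and 8 of 10 were above 0, as were 61.7% of all. The arrays of the groups overlapped for every member, where 2.53% of all tested genes gave groups that did not.

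In males of obese mothers 0 of 10 were called, beside 0.0% of all tested genes, and 0 had an unadjusted p under 0.05, beside 1.7%. Tdgf1 differed from lean parents by 0.41 (-0.94 to 1.75), Inhbb by 0.28 (-0.07 to 0.62) and Inhba by 0.16 (-0.17 to 0.49). Lefty2 (-0.17), Smad2 (-0.12), Nodal (-0.11), Lefty1 (-0.09), Acvr2b (-0.08) and Fst (-0.06) lay slightly below lean parents, within their errors. The median was -0.07, against -0.01 for all genes, and 0 members had groups that did not overlap, beside 1.4% of all. Between the sexes the obese-mother effect differed for 0 of 10 genes, beside 0.0% of all, and 0 of 10 had an unadjusted p under 0.05, beside 2.58%. For Inhba the difference of the effects was -0.04 (-0.50 to 0.43). Averaged over the sexes, Inhba differed by 0.18 (-0.05 to 0.41) and Inhbb by 0.18 (-0.06 to 0.43), with 0 of 10 genes called beside 0.0% of all, and 0 at an unadjusted p under 0.05 beside 1.52%.

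**Figure D2:**
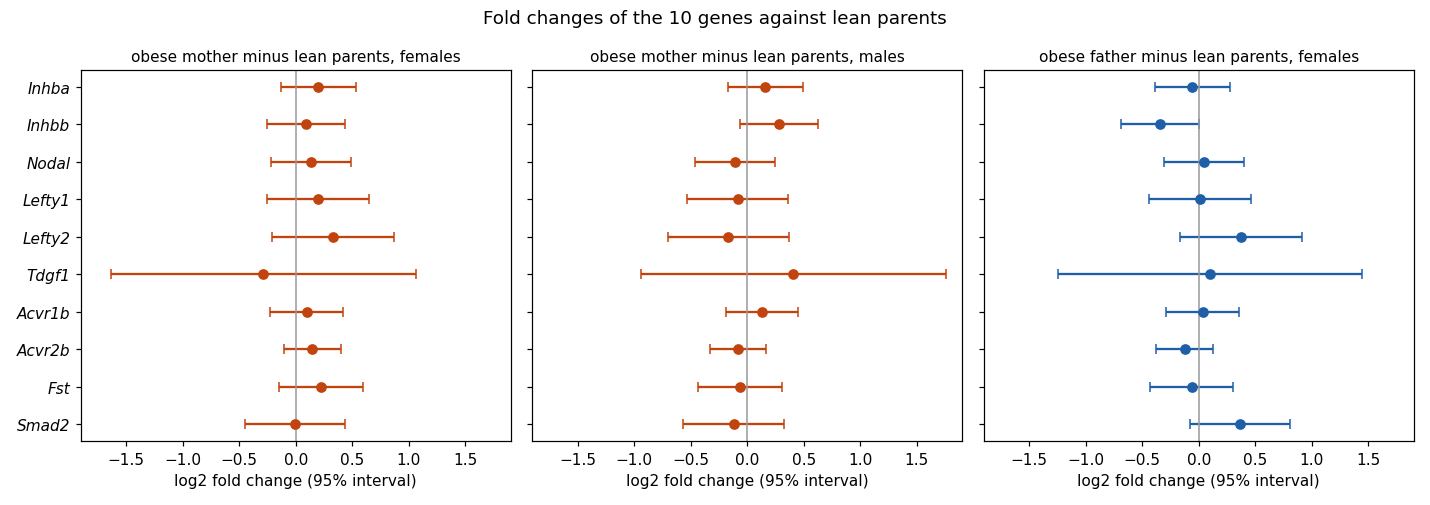
Log2 fold change of the 10 genes (horizontal axes) against lean parents in the 3 comparisons without obese-father male arrays. Points are limma estimates, bars are 95% intervals, and each interval includes 0, that of Inhbb in obese-father females reaching just to it (-0.68 to 0.00).

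In females, an obese father likewise went with 0 of 10 genes called, beside 0.0% of all tested genes, and 0 with an unadjusted p under 0.05, beside 2.84%. Leaving out single arrays gave 0 to 2 at an unadjusted p under 0.05, with 1 without replicate 22. Inhbb came nearest, at -0.34 (SE 0.17; limma adjusted p = 1.0). Its arrays did not overlap those of lean parents, the nearest of the 2 groups standing at 2.66 and 2.68. A separation in that direction was shown by 0.413% of all tested genes. This share counts only the direction that Inhbb took, and the share in either direction can only be as large or larger. Smad2 differed by 0.37 (-0.07 to 0.81), Lefty2 by 0.37 (-0.17 to 0.91) and Inhba by -0.06 (-0.38 to 0.27). The median was 0.02, the same as over all tested genes. The lean-parent arrays are those of the obese-mother comparison. Over the 3 obese-father female arrays other than replicate 22, the difference from lean parents was -0.26 for Inhbb, 0.12 for Smad2, 0.62 for Lefty2 and 0.12 for Inhba. For Tdgf1 it was -0.70 in place of 0.10, and for Lefty1 0.23 in place of 0.01. Inhba, Tdgf1 and Fst (-0.06 with it, 0.01 without) changed sign without that array. For Inhbb it was the lowest obese-father female array (2.26), so leaving it out could not make the groups overlap.

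Obese mothers and obese fathers were also set directly against each other in females, where 0 of 10 genes were called, beside 0.0% of all. At an unadjusted p under 0.05 stood 2 of 10, Inhbb and Acvr2b, beside 3.25% of all tested genes. That count was 0 without obese-father female replicate 22, 0 without the 2 arrays of widest spread, 0 without obese-mother female replicate 19 and 4 without obese-father female replicate 23. Inhbb was higher with obese mothers by 0.43 (SE 0.17; limma adjusted p = 0.975) and Acvr2b by 0.27 (SE 0.12; limma adjusted p = 0.975). Without the 2 arrays of widest spread these differences were 0.35 and 0.19. In 0 of the 10 genes did the groups fail to overlap, beside 1.6% of all. Tdgf1 differed by -0.39 (-1.74 to 0.96), Smad2 by -0.38 (-0.82 to 0.06), Fst by 0.28 (-0.09 to 0.65) and Inhba by 0.26 (-0.07 to 0.58).

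Male and female blastocysts were compared within each kind of parents. With lean parents 0 of 10 genes were called, beside 0.0% of all, and 0 had an unadjusted p under 0.05, beside 3.37%. Acvr2b was higher in males on every array, by 0.20 (-0.05 to 0.45), and 1.71% of all tested genes separated in that direction. That share, too, counts only the direction that the gene took. Inhba was higher in males by 0.28 (-0.05 to 0.61), and Inhbb was lower by 0.23 in males, with an interval of -0.58 to 0.11. With obese mothers Inhba was higher in males by 0.24 (-0.09 to 0.57), and 0 of 10 genes were called, beside 0.0%, and 0 at an unadjusted p under 0.05, beside 1.41%. Averaged over lean parents and obese mothers, Inhba was higher in males by 0.26 (SE 0.11; limma adjusted p = 1.0), the 1 of 10 genes at an unadjusted p under 0.05, beside 2.0% of all tested genes, and 0 of 10 were called, beside 0.0%. Without any 1 of 6 arrays, namely lean-parent female replicates 15 and 16, lean-parent male replicates 3 and 4, obese-mother female replicate 18 and obese-mother male replicate 7, that count of 1 was 0. The values for which Inhba was noted are low beside other arrays, which may include these males. Its selection may therefore bear on this comparison too. The male and female arrays of Inhba overlapped in both kinds of parents, and with obese mothers those of every member did, where 1.66% of all tested genes gave groups that did not.

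Males of obese fathers are described without a p for any member, because Inhba was chosen for its low values there. Against males of lean parents, Inhba was lower by 0.64 on the log2 scale (-0.64, SE 0.16), and against males of obese mothers it differed by 0.80, as obese mothers minus obese fathers (SE 0.16). These comparisons share the obese-father male arrays. In the first, 0 of 10 genes were called, where 0.00751% of all tested genes were, and Inhba and Acvr2b had all 4 obese-father arrays below the lean-parent arrays, as 6.63% of all tested genes had. In the second, 0 of 10 were called beside 0.00751%, and Inhba and Inhbb had all obese-mother arrays above the obese-father arrays, as 5.57% of all had. Nothing is read from these counts.

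Among the other ligand and receptor genes, obese-father males differed from lean-parent males by -0.33 (Nodal), -0.18 (Inhbb), -0.17 (Acvr2b) and -0.05 (Acvr1b). The inhibitors differed by -0.29 (Lefty1), -0.28 (Fst) and -0.15 (Lefty2), Smad2 by 0.00 and Tdgf1 by 0.99 (SE 0.65). Single arrays moved several of these values. Lefty2 was 0.09 without lean-parent male replicate 1 and -0.28 without obese-father male replicate 9. Lefty1 was -0.48 without lean-parent male replicate 3 and -0.14 without obese-father male replicate 12. Without obese-father male replicate 12 Nodal was -0.25 and Fst -0.19. Inhbb was -0.30 without lean-parent male replicate 3 and -0.10 without lean-parent male replicate 4, and Acvr1b was 0.04 without obese-father male replicate 11 and -0.17 without replicate 9. The other members kept their sign, except Smad2, near 0 throughout (-0.07 to 0.05). Of the 10 genes 8 were below 0, as were 66.7% of all tested genes, and the median was -0.18, against -0.11 for all. Relative to arrays centred on their medians, the medians were -0.09 and -0.03. Males minus females of obese fathers gave -0.31 for Inhba (-0.48 without obese-father female replicate 22 and -0.21 without replicate 23), and 0 of 10 genes were called, beside 0.00751%. The obese-father effect in males minus that in females gave -0.58 for Inhba (-0.76 without obese-father female replicate 22), and 0 of 10 were called, beside 0.0%.

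These values moved with the spread of the arrays. With the spread as a covariate, the difference of obese-father from lean-parent males was -0.43 (SE 0.13) for Inhba, 0.01 for Inhbb, -0.09 for Nodal, 0.09 for Lefty1, 0.16 for Lefty2, 0.12 for Acvr1b, -0.07 for Acvr2b, -0.10 for Fst, -0.13 for Tdgf1 and -0.25 for Smad2. After quantile normalization, which gives every array the same distribution, it was -0.57 for Inhba, -0.10 for Inhbb, -0.46 for Nodal, -0.38 for Lefty1, 0.02 for Acvr1b, 0.71 for Tdgf1 and 0.09 for Smad2. The values of Inhbb, Lefty1, Lefty2, Acvr1b, Tdgf1 and Smad2 changed sign with the covariate, and that of Acvr1b also after quantile normalization. As Inhba was selected on these arrays, nothing is read from its size or sign beside the other members. Without obese-father male replicate 12 and obese-father female replicate 22, Inhba gave -0.56 and Tdgf1 0.71. Leaving out single arrays gave -0.75 to -0.56 for Inhba.

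**Figure D3:**
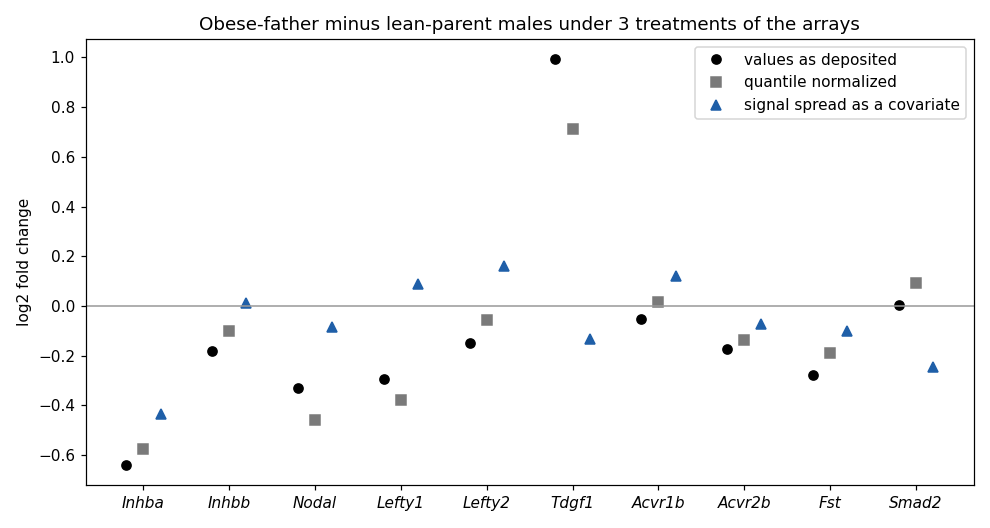
Log2 fold change (vertical axis) of the 10 genes, obese-father minus lean-parent males, from the values as deposited (circles), after quantile normalization (squares) and with the spread of each array as a covariate (triangles). Inhba, which was selected on these arrays, stands at -0.64, -0.57 and -0.43, and Tdgf1 at 0.99, 0.71 and -0.13.

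Across the 24 arrays the level of 8 of the 10 genes ran against the spread. Pearson's r to the spread was -0.88 for Lefty1, -0.79 for Nodal, -0.68 for Inhba, -0.61 for Fst, -0.58 for Inhbb, -0.57 for Acvr1b, -0.54 for Lefty2 and -0.51 for Acvr2b. Tdgf1 ran the other way (0.84), as did Smad2 (0.52). These are descriptions with no p. The spread is computed from all probe sets of the same arrays, and 70.0% of all tested genes had an r below 0 and 43.5% below -0.5. Spearman's rho was -0.81 for Lefty1, -0.76 for Nodal, -0.46 for Inhba and 0.80 for Tdgf1. Without the 2 arrays of widest spread r was -0.76, -0.75, -0.41 and 0.69 for the same genes. It was then -0.47 for Fst, -0.39 for Acvr1b, -0.37 for Inhbb, -0.36 for Acvr2b and -0.31 for Lefty2. For Smad2 it was 0.08, so the relation of Smad2 rested on those arrays. The part of the spread in any difference between groups was not tested beyond the covariate.

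**Figure D4:**
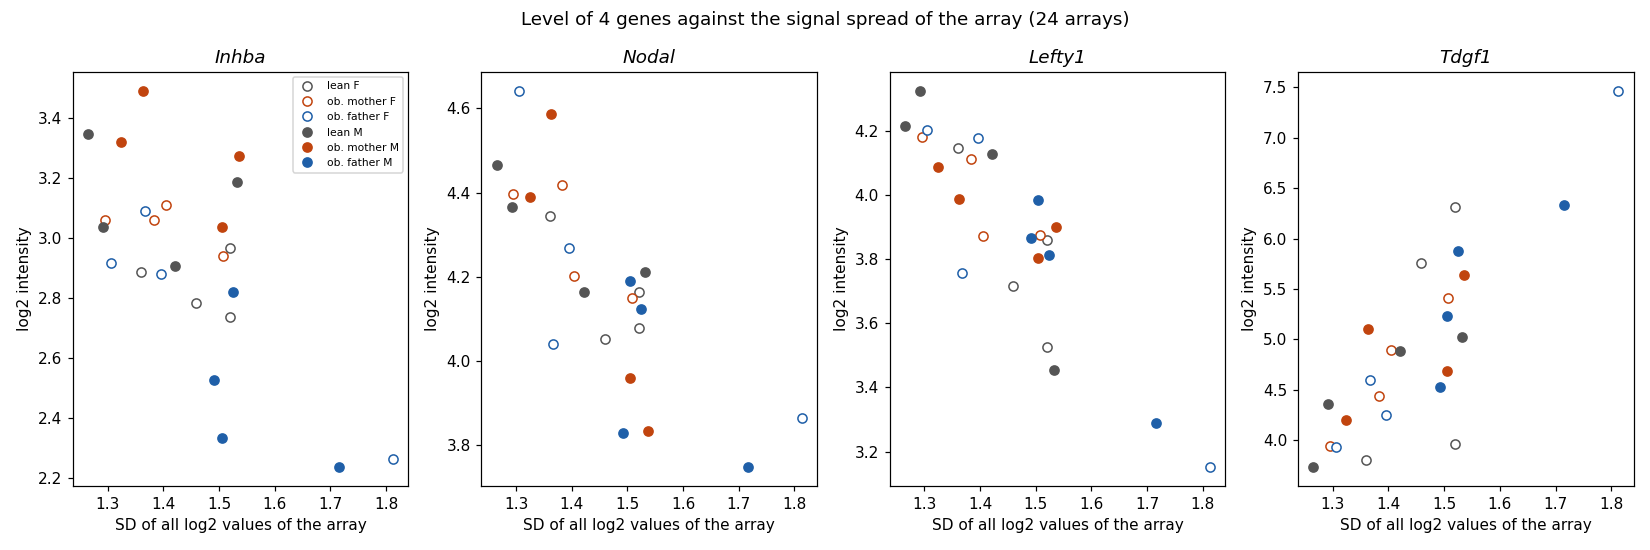
Log2 intensity of Inhba, Nodal, Lefty1 and Tdgf1 (vertical axes) against the spread of each array, the SD of all its log2 values (horizontal axes), with 1 point per array and colours and fill for the 6 groups. The first 3 genes fall towards wide arrays (r -0.68, -0.79 and -0.88) and Tdgf1 rises (r 0.84), and the 2 arrays at the right are obese-father male replicate 12 and obese-father female replicate 22.

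Nodal and its inhibitor Lefty1 were the pair with the highest r among the 45 pairs of members. Their levels had r 0.71 (Spearman 0.76) over 24 arrays, and the deviations from group means had r 0.68. After the spread was removed as well, r was 0.09. Lefty1 and Tdgf1 had r -0.70, which became 0.17, and Inhba and Nodal had r 0.57, which became 0.06. For Inhba the closest member was thus Nodal, which stood at rank 1624 among the named tested genes by r to Inhba. The 5 named genes most like Inhba in level were Ube2r2, a ubiquitin-conjugating enzyme gene (r 0.86), Appbp2os (0.84), Fgd2 (0.84), Psmf1, a proteasome inhibitor gene (0.83), and the transglutaminase gene Tgm5 (0.82), and their own r to the spread ran from -0.81 to -0.69. By deviations from group means they were Gcnt4 (0.84), P2ry1 (0.84), Mettl23 (0.84), Ism1 (0.82) and Was (0.82).

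A further 77 genes were listed by role, from TGF-beta ligands and receptors to targets and partners of the pathway in the embryo. Of these, 74 were on the array and 61 were tested, and limma called 0 of 61 in any of the 13 comparisons. At an unadjusted p under 0.05, obese mothers against lean parents gave 2 of 61 genes in females and 3 of 61 in males, and obese fathers gave 3 of 61 in females, beside 2.19%, 1.7% and 2.84% of all tested genes. None of the genes named next was called, with adjusted p from 0.975 to 1.0 in limma. Among the ligands, Bmp4 differed by 0.37 between obese-father and lean-parent females, and Inha, the inhibin alpha subunit gene, by -0.39 between obese-mother and lean-parent males. Bmp7 was higher by 0.22 in obese-mother than in obese-father females. Among the receptors, Tgfbr3 differed by 0.33 between obese-mother and obese-father females, Tgfbr2 by 0.23 between males and females of obese mothers and Bmpr2 by 0.35 between obese-mother and lean-parent males.

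Of the extracellular group, the BMP antagonist gene Grem1 differed by 0.37 between obese-mother and lean-parent females, and between obese-mother and lean-parent males Furin, a convertase gene, differed by -0.35 and Nomo1 by -0.28. Of the intracellular group, Trim33, whose product binds SMAD proteins, differed by -0.65 between obese-mother and lean-parent males. Smad9 differed by 0.47 between obese-mother and obese-father females, and Pmepa1, a target gene of TGF-beta, by 0.69 between males and females of obese mothers. Of the targets and partners in the embryo, Pou5f1, which encodes the pluripotency factor OCT4, differed by 1.53 (SE 0.73) between obese-mother and lean-parent males. Its level was 6.53 ± 0.71 (SD) in the obese-mother and 5.01 ± 1.61 in the lean-parent males, so the arrays were widely scattered. Nanog differed by -0.56 between obese-mother and obese-father females, and Eomes, a trophectoderm factor gene, by 0.51 between obese-father and lean-parent females.

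Activin subunits are also made by cumulus and granulosa cells, which surround the egg. Of 18 markers of those cells 16 were on the array, none listed at 0. Their mean level was 2.67 to 2.84 on obese-father male arrays and 2.74 to 2.97 on lean-parent male arrays. In that comparison 8 of the 10 tested markers were below 0, with a median of -0.25, and 0 were called. Of all tested genes 66.7% were below 0, with a median of -0.11, and 0.00751% were called. The oocyte-derived markers (6 of 6 below 0, median -0.26) and the blood and leukocyte markers (2 of 2, median -0.27) fell there too. The blood and leukocyte list had only 2 tested genes of 8 listed. Whether the fall was particular to any of these lists was not tested. Means of the cumulus and granulosa markers over 24 arrays ran from 1.69 for Ptx3 and 1.70 for Kitl to 5.20 for Gja1, which the embryo also expresses. Amh (4.06), Foxl2 (3.82), Inha (3.63), Nr5a2 (3.39) and Nr5a1 (3.38) also lay above all 8 Y-linked probe sets. The other markers, from Star (2.66) down, lay below that of Sry (2.96). Trophectoderm markers went the other way, at 4.81 to 5.58 on obese-father male arrays and 4.02 to 4.76 on lean-parent male arrays. Of these markers 11 of 12 were above 0, beside 33.3% of all tested genes, and 0 were called, beside 0.00751%. Inner cell mass and epiblast markers had 5 of 11 above 0 (median -0.19), and primitive endoderm markers 7 of 12 (median 0.13). The spread was wider on obese-father male arrays (mean 1.56) than on lean-parent male arrays (1.38). The part of any of these cell types in the values of Inhba was not tested.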

How the data were processed

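Affymetrix arrays of 24 blastocyst pools were used, 4 in each of 6 groups taken from the labels. The authors deposited log2 intensities from RMA and affy, as the submitters' processing notes name them. Their versions, the definition of probe sets and a build were not stated. Of 35556 probe sets, 21789 had 1 gene symbol in GEO's platform annotation, 1621 several and 12146 none. For the 999 of 19938 genes with more than 1 set, the set with the highest mean was used. Genes above the table median on at least 4 of 24 arrays were tested, which left 13311.

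A model with 6 group means was fitted with limma 3.58.1 in R 4.3.3 to all 24 arrays, without covariates, and checked on simulated data. With changes added to 200 genes in obese-mother males, 10.4% of log2 changes of 0.5 were called, 75.7% of 1 and 92.3% of 2. Changes of 0.5 or less would thus mostly go uncalled. The model gave 13 contrasts, with Benjamini-Hochberg adjustment over all tested genes within each and calls at an adjusted p under 0.05. Pools were taken as independent. The members and gene lists were chosen with earlier results of these data known. All members are named. Of other pathway genes, up to 3 per role with the smallest unadjusted p over the 6 simple comparisons without obese-father males are named. Genes like Inhba are the 5 with the highest r by each measure, leaving out names without information. The number of arrays limits the precision. Promoters came from RefSeq (GRCm38.p6). Alternatives covered the filter, the probe set rule, the prior, array weights, scaling, the spread as a covariate and leaving out each array.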

Additional observations from a re-analysis of the deposited data

Results flagged for a closer look

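Smad2 on lean-parent male replicate 2 stood far below the other arrays of its group, at 2.13 against a nearest value of 2.41. The gap was 0.914 of the range of the 4 arrays, past the critical value of 0.829. It was the 1 such case among 60 combinations of gene and group, and chance gives about 1 in 20.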

How the results depend on the processing

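Of 455 recomputed counts of members called, 453 were equal to the value reported. The 2 exceptions concern males of obese mothers against males of obese fathers, with a count of 1 against 0. The member is Inhba, which was selected on these arrays, so the count is no test of it. It arose with array weights, where 2 of 13311 tested genes were called, and without obese-father female replicate 22, where 2 of 13145 were. Leaving out single arrays thus gave 0 to 1 there and 0 in every other comparison. Of 1426 recomputed fold changes 1421 moved by less than the spread between replicates or kept their side of the threshold. The other 5, all with the spread as a covariate, were Nodal (-0.09), Lefty1 (0.09) and Tdgf1 (-0.13) in obese-father against lean-parent males, and Lefty1 (0.07) and Tdgf1 (-0.20) in the difference of that effect between the sexes. This rule did not count a change of sign in comparisons with obese-father males. Inhbb, Lefty2, Acvr1b and Smad2 thus changed sign there with the covariate without being counted. In the other comparisons limma adjusted p stayed at 0.671 or above, so the agreement was largely set by the rule. Leaving out each array gave 0.32 to 0.53 for Inhbb and 0.19 to 0.35 for Acvr2b in obese-mother against obese-father females. The lowest for Acvr2b came without obese-father female replicate 22. The stricter filter of 12 of 24 arrays left out Lefty2, Fst and Smad2. The setting without the 2 arrays of widest spread and the medians under centring were chosen after seeing the data. No paired analysis by mother was possible because the parents of single pools are not named and the replicate numbers differ in every group. The dim members limit what the arrays can show.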
